A study of Mus musculus with 20 samples.

Results

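Muller glia are the radial glia that span the retina, and 10 genes through which they handle water, potassium, glutamate and lipids were followed over age in mouse retinas that lack Nrl. The genes were Aqp4, Kcnj10, Car14, Car2, Glul, Slc1a3, Apoe, Sox9, Abca8a and Dkk3, taken as a named list, and their values came from every probe set that the platform annotation gives to 1 of them alone. This gave 111 of the 194293 probe sets on the array and 10 of its 15781 named genes. The retinas came from Nrl-/- mice on the C57Bl/6J strain at 1, 2, 4, 6 and 10 months of age, with 4 mice per age, both retinas of a mouse in 1 sample and 1 Affymetrix exon array per sample. Nrl encodes the factor that makes a young photoreceptor a rod, and without it the outer retina fills with cone-like cells. Every mouse carried the deletion, from birth and in all cells, and no wild-type retina was measured, so an effect of the missing gene and ordinary ageing cannot be told apart.

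Muller glia clear what active neurons release. Potassium and water leave the retina through channels in their end feet, glutamate is taken up by a transporter and turned into glutamine, carbon dioxide is hydrated by carbonic anhydrases, and lipid is passed to neurons in particles that carry apolipoprotein E. When photoreceptors are damaged, Muller glia commonly react by making more of the filament protein encoded by Gfap, and they may lose part of the channels and enzymes named here.

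All levels are log2 intensities, a gene's level being summarised over its probe sets, and levels of different genes on an array are not comparable. Differences are between the mean log2 levels of 2 ages, given with their standard errors (SE, n = 4 mice per age), and a gene is called where limma's adjusted p was under 0.05 among the 11836 genes tested. All 10 genes lay above the limit for testing of 5.61, with mean levels over the 20 arrays between 8.14 for Kcnj10 and 12.34 for Glul, and the Muller glia marker Rlbp1, which encodes a retinaldehyde-binding protein, averaged 11.21. The genes are not confined to Muller glia: Car14, Car2 and Rlbp1 are also used by the pigment epithelium, and Apoe and Slc1a3 by other glia. RNA was taken from the whole retina, so more RNA per Muller cell and a larger share of Muller cells cannot be told apart.

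Nrl measured between 5.97 and 6.53 on the 20 arrays. Whether these probe sets fall within the deletion is not given in the sources used here, so the labels cannot be checked by it. Array medians ran from 7.76 to 7.78, and the mean correlation of an array with the others ran from 0.974 for replicate 4 of 4 months to 0.989. No label gives the sex of a mouse or a batch. The Y-linked gene Eif2s3y was between 3.85 and 4.07 in the 4 arrays of 2 months and 3.80 and 4.35 in replicates 2 and 3 of 10 months, against 7.43 to 8.85 in the other 14 arrays. At 2 months against 1 month, and at 4 months against 2 months, the Y-linked level therefore changed with age on every array. In these comparisons the Y-linked level and age cannot be told apart. The mean of the tested pigment epithelium markers was high on 3 of the 4 arrays of 10 months, though single markers differed.

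All 10 genes were higher at 10 months than at 1 month, but they did not all rise throughout. Apoe was highest at 4 months and Abca8a at 6 months, and Sox9 was called higher than at 1 month at 10 months alone. Averaged over the genes, each centred on its own mean over the 20 arrays, the level was -0.26 ± 0.05 (SD, n = 4) at 1 month, -0.06 ± 0.05 at 2 months, 0.05 ± 0.05 at 4 months, 0.10 ± 0.04 at 6 months and 0.17 ± 0.07 at 10 months. The 4 arrays of 1 month, at -0.33 to -0.20, were the lowest of the 20 and had at most 1 of the 10 genes above its own mean. The arrays of 10 months lay between 0.09 and 0.25, with 8 to 10 of the genes above their means. By the F test over the 5 ages all 10 genes were called (38.4% of all tested genes were), with adjusted p between 1.34e-06 for Car14 and 0.0368 for Abca8a.

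**Figure D1:**
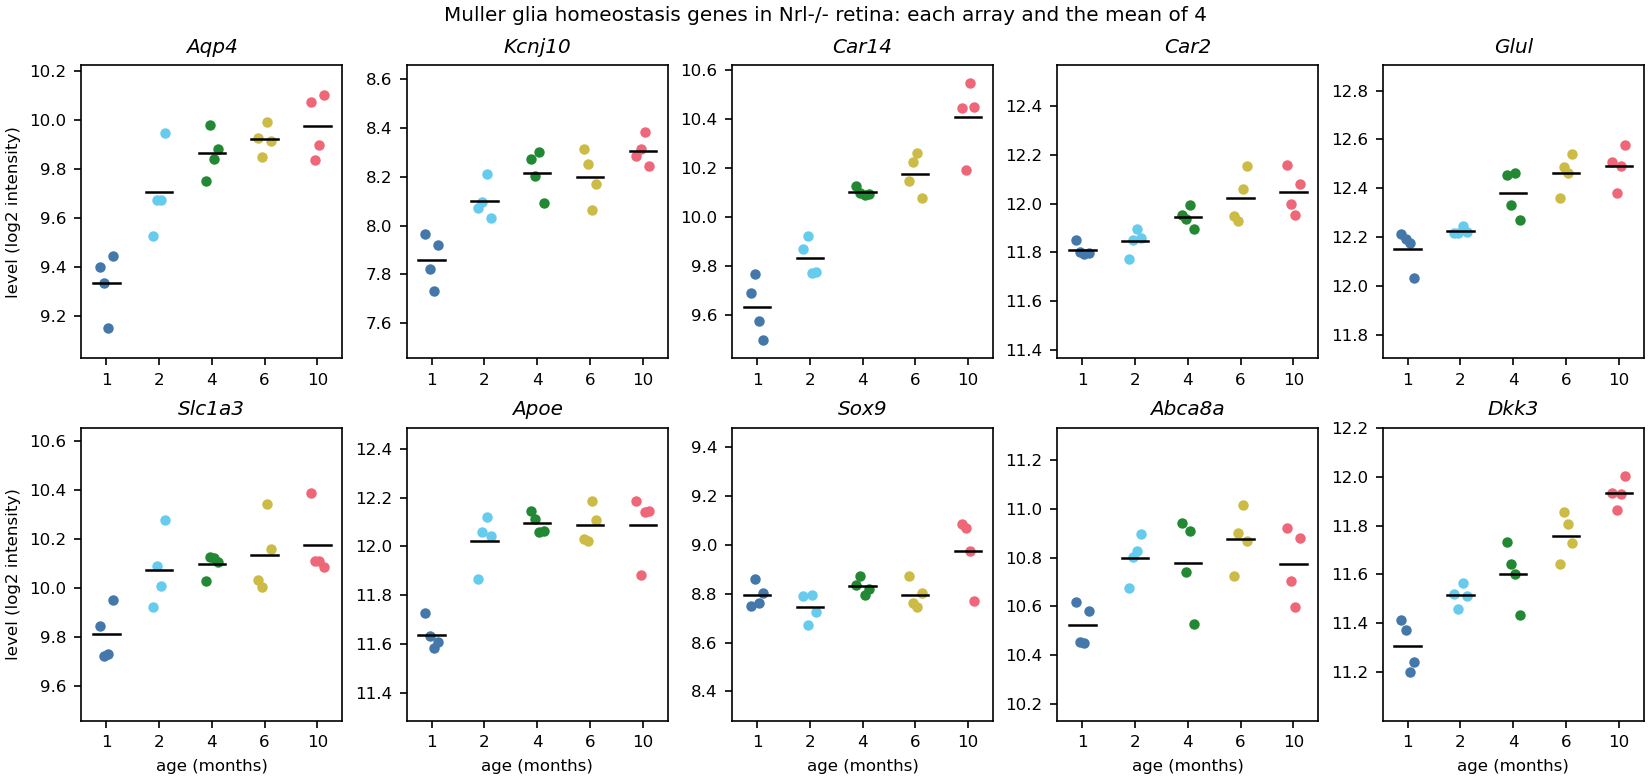
Level of each of the 10 genes in log2 intensity (vertical axis, with the same span of 1.2 in every panel) at 5 ages in months (horizontal axis). Points are single arrays and bars the mean of 4. In 9 of the 10 panels the mean of 1 month is the lowest, and in the Sox9 panel that of 2 months is.

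Aqp4 encodes the water channel of the Muller end feet. Its levels were 9.40, 9.33, 9.15 and 9.44 at 1 month and 9.53, 9.67, 9.67 and 9.95 at 2 months. Later levels were 9.75, 9.98, 9.84 and 9.88 at 4 months, 9.93, 9.85, 9.99 and 9.91 at 6 months and 10.07, 9.84, 9.90 and 10.10 at 10 months. Every array of 1 month was below every later array, while the arrays of 4, 6 and 10 months overlapped one another. The difference from 1 month was 0.37 ± 0.09 (SE) at 2 months (limma adjusted p = 0.0104), 0.53 ± 0.09 at 4 months (adjusted p = 0.000375) and 0.65 ± 0.09 at 10 months (adjusted p = 8.73e-06), the last a level 56.5% higher on the linear scale.

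Kcnj10 encodes Kir4.1, the inward-rectifying potassium channel through which Muller glia shed potassium. It measured 7.96, 7.82, 7.73 and 7.92 at 1 month and 8.07, 8.09, 8.21 and 8.03 at 2 months. Later levels were 8.27, 8.20, 8.30 and 8.09 at 4 months, 8.31, 8.25, 8.06 and 8.17 at 6 months and 8.29, 8.31, 8.38 and 8.24 at 10 months. Here too the arrays of 1 month stood below all others, and neighbouring later ages overlapped. The gene was 0.24 ± 0.07 higher at 2 months than at 1 month (limma adjusted p = 0.0284) and 0.45 ± 0.07 higher at 10 months than at 1 month. The call at 2 months was lost in 8 of 32 other settings, among them leaving out replicate 2 or 3 of either age, while the call at 10 months held in all 34.

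Both carbonic anhydrase genes rose, and Car14 had the largest difference between 10 months and 1 month among the 10 genes. Car14, whose enzyme sits on the outer face of the Muller and pigment epithelial membranes, had levels of 9.69, 9.77, 9.57 and 9.50 at 1 month and 9.87, 9.92, 9.77 and 9.77 at 2 months. Later levels were 10.13, 10.10, 10.09 and 10.09 at 4 months, 10.15, 10.23, 10.26 and 10.08 at 6 months and 10.45, 10.19, 10.55 and 10.45 at 10 months. The groups of 1, 2 and 4 months did not overlap one another (1 and 2 months only narrowly), those of 4 and 6 months did, and at 10 months replicate 2 lay among the arrays of 6 months while the other 3 lay above them. The difference from 1 month was 0.20 ± 0.07 at 2 months (limma adjusted p = 0.091, not called), 0.47 ± 0.07 at 4 months (adjusted p = 0.000239) and 0.78 ± 0.07 at 10 months (adjusted p = 1.53e-07).

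Car2, the gene of the cytosolic carbonic anhydrase, moved less. Its levels were 11.85, 11.80, 11.79 and 11.80 at 1 month and 11.77, 11.85, 11.89 and 11.86 at 2 months. Later levels were 11.95, 11.94, 11.995 and 11.89 at 4 months, 11.95, 11.93, 12.06 and 12.15 at 6 months and 12.16, 11.999, 11.95 and 12.08 at 10 months. The arrays of 2 months overlapped those of 1 month, and the arrays of 4, 6 and 10 months were above both, narrowly so at 4 months. It was first called at 6 months against 1 month (0.21 ± 0.06, limma adjusted p = 0.0124) and stood 0.24 ± 0.06 higher at 10 months than at 1 month (adjusted p = 0.00196).

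The pair of genes that remove glutamate also rose. Glul encodes glutamine synthetase, which turns glutamate into glutamine, and was read by 1 probe set, so its value has no second reading. It measured 12.21, 12.19, 12.17 and 12.03 at 1 month and 12.22, 12.22, 12.25 and 12.22 at 2 months. Later levels were 12.46, 12.33, 12.46 and 12.27 at 4 months, 12.36, 12.49, 12.46 and 12.54 at 6 months and 12.51, 12.38, 12.49 and 12.58 at 10 months. The arrays of 2 months lay just above those of 1 month and below those of all later ages. The difference from 1 month was 0.07 ± 0.06 at 2 months (limma adjusted p = 0.525, not called), 0.23 ± 0.06 at 4 months (adjusted p = 0.0128) and 0.34 ± 0.06 at 10 months (adjusted p = 0.000147).

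Slc1a3 encodes GLAST, the main glutamate transporter of Muller glia. It measured 9.85, 9.72, 9.73 and 9.95 at 1 month and 9.92, 10.09, 10.01 and 10.28 at 2 months. Later levels were 10.03, 10.13, 10.12 and 10.11 at 4 months, 10.03, 10.00, 10.34 and 10.16 at 6 months and 10.39, 10.11, 10.11 and 10.09 at 10 months. Arrays of 1 and 2 months overlapped, arrays of later ages all lay above 1 month, and at 10 months replicate 1 stood well above the other 3. The rise was called at 4 months (0.28 ± 0.09, limma adjusted p = 0.0345), 6 months (0.32 ± 0.09, adjusted p = 0.0165) and 10 months (0.36 ± 0.09, adjusted p = 0.00272), each against 1 month. The call at 4 months was lost in 9 of 33 other settings, among them leaving out replicate 1, 2 or 3 of 1 month or 2, 3 or 4 of 4 months.

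Of the lipid genes, Apoe was already called at 2 months and Abca8a at 6 months. Apoe, the gene of the apolipoprotein of the retina's lipid particles, measured 11.73, 11.63, 11.59 and 11.61 at 1 month and 11.87, 12.06, 12.12 and 12.04 at 2 months. Later levels were 12.15, 12.11, 12.06 and 12.06 at 4 months, 12.03, 12.02, 12.19 and 12.11 at 6 months and 12.19, 11.88, 12.14 and 12.15 at 10 months. All 16 later arrays were above the 4 of 1 month, with the next lowest values in replicate 1 of 2 months and replicate 2 of 10 months. The difference from 1 month was 0.38 ± 0.07 at 2 months (limma adjusted p = 0.00156), 0.46 ± 0.07 at 4 months (adjusted p = 0.000186) and 0.45 ± 0.07 at 10 months. At 10 months against 4 months the difference was -0.01 ± 0.07, with a 95% interval of -0.15 to 0.14.

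Abca8a, a gene of an ATP-binding cassette transporter that moves lipids, had levels of 10.62, 10.46, 10.45 and 10.58 at 1 month and 10.67, 10.80, 10.83 and 10.90 at 2 months. Later levels were 10.94, 10.74, 10.91 and 10.53 at 4 months, 10.72, 10.90, 11.01 and 10.87 at 6 months and 10.92, 10.70, 10.60 and 10.88 at 10 months. Its arrays of 2 and 6 months were above those of 1 month, while 1 array each of 4 and 10 months lay within the range of 1 month. It was called at 6 months (0.35 ± 0.09, limma adjusted p = 0.0122) and at 10 months (0.25 ± 0.09, adjusted p = 0.0346), each against 1 month, and not at 2 months (0.27 ± 0.09, adjusted p = 0.069). The call at 10 months was lost in 9 of 34 other settings, among them leaving out replicate 2 or 3 of 1 month or 1 or 4 of 10 months. It was also lost with pigment epithelium markers as a covariate (0.25 ± 0.11, limma adjusted p = 0.0953), a setting described further on.

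Dkk3 and Sox9 are the secreted factor and the transcription factor of the list. Dkk3, which encodes a secreted glycoprotein of the Dickkopf family, measured 11.41, 11.37, 11.20 and 11.24 at 1 month and 11.52, 11.46, 11.57 and 11.51 at 2 months. Later levels were 11.73, 11.64, 11.60 and 11.43 at 4 months, 11.64, 11.85, 11.81 and 11.73 at 6 months and 11.93, 11.86, 11.93 and 12.001 at 10 months. Arrays of 10 months were above all others and arrays of 1 month below all others, with overlap between neighbouring ages in between. The difference from 1 month was 0.21 ± 0.07 at 2 months (limma adjusted p = 0.0574, not called), 0.30 ± 0.07 at 4 months (adjusted p = 0.00487) and 0.63 ± 0.07 at 10 months (adjusted p = 6.52e-07).

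Sox9, which encodes a transcription factor that Muller glia keep from their progenitors, measured 8.75, 8.86, 8.76 and 8.80 at 1 month and 8.79, 8.67, 8.79 and 8.72 at 2 months. Later levels were 8.84, 8.87, 8.79 and 8.82 at 4 months, 8.87, 8.76, 8.75 and 8.80 at 6 months and 9.09, 9.07, 8.98 and 8.77 at 10 months. Replicates 1, 2 and 3 of 10 months were the 3 highest of the 20 arrays, and replicate 4 lay among the younger ones. Its difference from 1 month was -0.05 ± 0.06 at 2 months, 0.04 ± 0.06 at 4 months and 0.00 ± 0.06 at 6 months (limma adjusted p between 0.709 and 0.983), and 0.18 ± 0.06 at 10 months (adjusted p = 0.0205). On the arrays high in Y-linked genes alone, which leaves replicates 1 and 4 of 10 months, the difference at 10 months was 0.14 ± 0.08 and was not called (adjusted p = 0.223). The call was also lost without replicate 1 or 2 of 10 months or replicate 1 of 1 month.

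Counted over the list, 3 of the 10 genes were called higher at 2 months than at 1 month (Apoe, Aqp4 and Kcnj10), where 3.3% of all tested genes were called higher. At 4 months against 1 month 7 were called (all but Car2, Abca8a and Sox9), where the share over all genes was 6.9%. At 6 months 9 were called (all but Sox9), against 7.89%, and at 10 months all 10 were, against 20.6%. None of the 10 was called lower at these ages, where 5.22%, 8.26%, 8.52% and 20.8% of all tested genes were at 2, 4, 6 and 10 months. The median difference from 1 month over the 10 genes was 0.22, 0.29, 0.35 and 0.40 at 2, 4, 6 and 10 months, while the median over all tested genes was 0.01, 0.01, 0.01 and 0.04. Groups did not overlap, with the later age higher, for 7, 8, 9 and 8 of the 10 genes at these ages, where 7.5%, 8.32%, 11.2% and 17.9% of all tested genes did so. These comparisons share the arrays of 1 month, and in the case of 2 months they also carry the Y-linked difference. Once the Y-linked level entered the fit as a covariate, Apoe alone stayed called at 2 months (0.57 ± 0.13, limma adjusted p = 0.0406). The Y-linked level was high on all 4 arrays of 1 month and on 0 of the 4 of 2 months. That fit therefore cannot separate it from age for any gene, Apoe included.

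**Figure D2:**
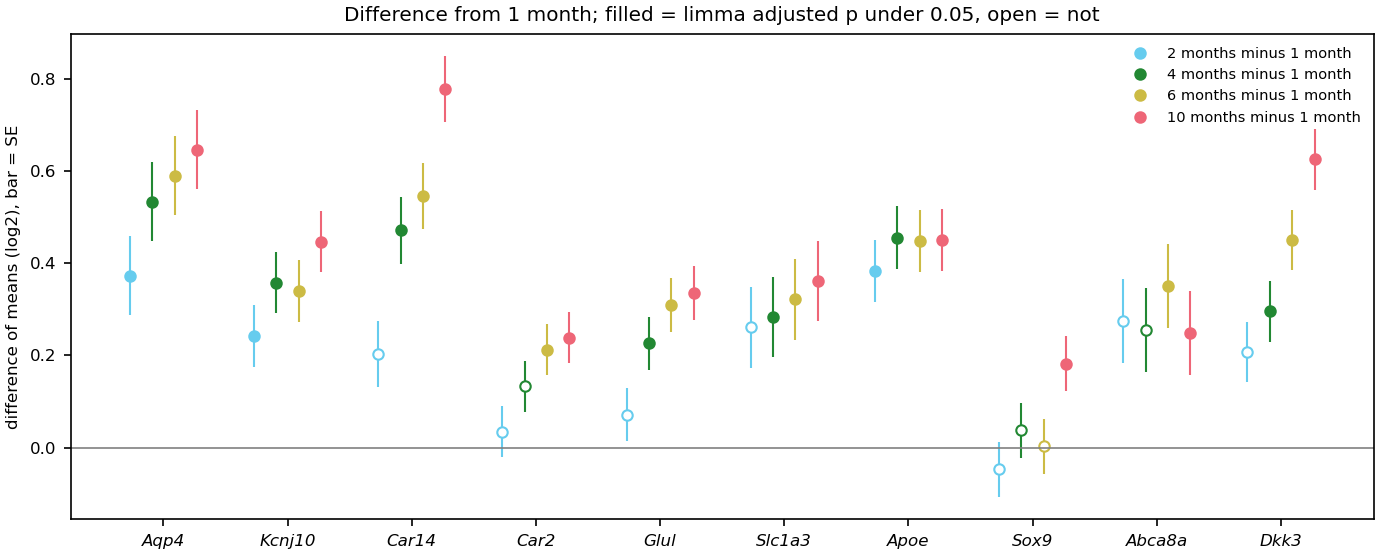
Difference of the mean log2 level from 1 month for each of the 10 genes (horizontal axis) at 2, 4, 6 and 10 months, with bars of 1 standard error. Filled points passed limma's adjusted p of 0.05 and open points did not. Car14 reaches 0.78 at 10 months, and Sox9 stays between -0.05 and 0.04 at the ages before that.

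Between neighbouring ages after 2 months few of the genes were called. Limma called 0 of the 10 genes between 4 and 2 months, where 0.076% of all tested genes were called higher, among them the 2 tested Y-linked genes. The Y-linked level was low on all arrays of 2 months and high on all of 4 months, so it cannot be told apart from age in this comparison. At an unadjusted limma p under 0.05 there were 2 of the 10 (Car14 and Glul) and 959 of all 11836 tested genes. Between 6 and 4 months limma called 0 of the 10, and 0% of all tested genes were called. There 1 of the 10 (Dkk3) and 531 of all 11836 tested genes had an unadjusted p under 0.05, so this count is no result about the list. At 10 months against 6 months 2 genes were called higher, Car14 (0.23 ± 0.07, adjusted p = 0.0272) and Sox9 (0.18 ± 0.06, adjusted p = 0.041), where 8.56% of all tested genes were. Dkk3 did not overlap between these ages, at 11.86 to 12.001 at 10 months and 11.64 to 11.85 at 6 months, but was not called (0.17 ± 0.07, adjusted p = 0.0678). At 10 months against 4 months the called genes were Dkk3 (0.33 ± 0.07, limma adjusted p = 0.00152) and Car14 (0.31 ± 0.07, adjusted p = 0.00482), against 10.2% of all tested genes. With 2, 4 and 6 months together set against 1 and 10 months together, Apoe (0.20 ± 0.04, adjusted p = 0.00359) and Aqp4 (0.18 ± 0.06, adjusted p = 0.0356) were called higher, where 8.53% of all tested genes were. Aqp4 lost this call in 11 of 30 other settings, among them leaving out replicate 2 or 3 of 1 month, 4 of 2 months, 2 of 4 months, 3 or 4 of 6 months or 2 or 3 of 10 months.

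Markers of the pigment epithelium, the cell layer behind the retina, were uneven at 10 months. The mean of 6 of the 9 markers (Rpe65, Rgr, Tyrp1, Slc45a2, Ttr and Otx2; Best1 and Tyr were too dim to test and Mlana had no probe set) was 8.96, 7.78, 8.65 and 9.03 in replicates 1 to 4 of 10 months, against 7.92 to 8.25 at 1 month, 7.86 to 8.03 at 2 months, 7.86 to 8.25 at 4 months and 7.88 to 8.34 at 6 months. The markers did not move as one. Of the 6, limma called 2 higher (Rpe65, 0.98 ± 0.30, adjusted p = 0.0143, and Rgr, 0.84 ± 0.30, adjusted p = 0.0303) and 1 lower at 10 months against 1 month, where 20.6% and 20.8% of all tested genes were. It called 0 higher and 1 lower at 10 months against 6 months. The lower gene was Otx2 both times (-0.25 ± 0.05, adjusted p = 0.000251, against 1 month, and -0.15 ± 0.05, adjusted p = 0.0272, against 6 months), a gene also used by photoreceptors and bipolar cells. Otx2 measured 11.01, 11.09, 10.95 and 10.99 in replicates 1 to 4 of 10 months, so that replicate 2 was the highest of the 4. Slc45a2 measured 6.71, 6.76, 6.99 and 6.49 on the same arrays, lowest in replicate 4, where the mean of the 6 was highest. Replicate 2 of 10 months was the lowest of all 20 arrays in the mean of the 6 and also the array whose Car14 level, 10.19, lay within the range of 6 months. With this mean as a covariate, a setting added after seeing the data, Car14 was 0.16 ± 0.08 higher at 10 months than at 6 months and was no longer called (limma adjusted p = 0.226), nor was it against 4 months (0.22, adjusted p = 0.102), while against 1 month it stayed called (0.71 ± 0.08, adjusted p = 4.94e-06). Sox9 at 10 months against 6 months was 0.21 ± 0.07 in that fit (adjusted p = 0.0577). Dkk3 kept its call against 4 months (0.33, adjusted p = 0.0158). The mean includes Otx2, so this covariate is not a measure of the pigment epithelium alone. Whether Muller glia add to any of the 6 markers was not tested.

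Replicate 2 was singled out after its values were seen, so its own differences are a description and no test. Alone, it differed in Car14 by 0.02 from the mean of 6 months and by 0.56 from that of 1 month, and in Dkk3 by 0.56 from that of 1 month. Car14 at 10 months against 6 months was also not called without replicate 1, 3 or 4 of 10 months or without replicate 1 or 4 of 6 months, and Sox9 was not called without replicate 1, 2 or 3 of 10 months or without 2, 3 or 4 of 6 months.

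**Figure D3:**
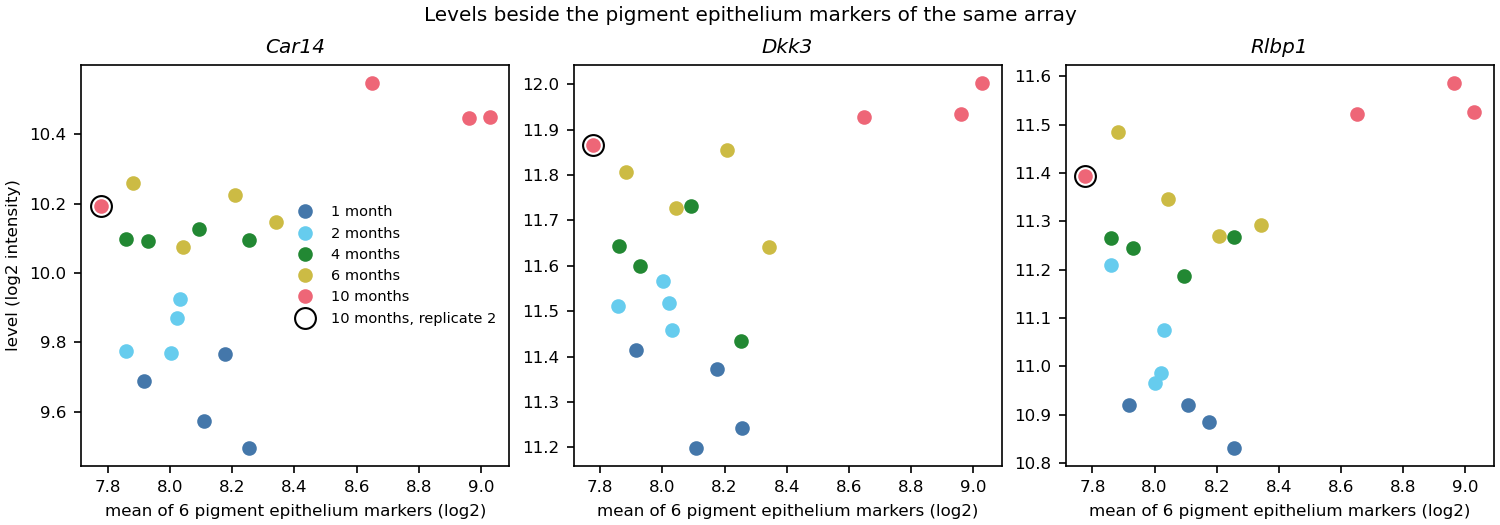
Levels of Car14, Dkk3 and Rlbp1 in log2 intensity (vertical axes) against the mean of 6 pigment epithelium markers on the same array (horizontal axis, log2), for all 20 arrays, coloured by age. The ring marks replicate 2 of 10 months, whose marker mean is 7.78 while the other arrays of 10 months lie between 8.65 and 9.03.

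Nearly all exon-level probe sets of the genes lay higher at 10 months than at 1 month. Of the 111 probe sets, 108 were bright enough to test, and at 10 months against 1 month 61 of them were called higher, 0 were called lower and 106 had a difference above 0, where 9.61% of all tested probe sets were called higher and 13% lower. All 9 probe sets of Car14, all 9 of Dkk3 and all 8 of Apoe were called, with differences of 0.65 to 0.93, 0.45 to 0.77 and 0.30 to 0.64, and the 1 probe set of Glul was called. For Aqp4 9 of 11 tested probe sets were called, for Slc1a3 9 of 12, for Car2 4 of 8 and for Kcnj10 2 of 4. Abca8a had 10 of 38 called, with a median difference of 0.25. For Sox9 limma called 0 of 8, though 7 of them lay above 0 (median 0.23, range -0.08 to 0.41), so its call rests on the summary over probe sets. At 4 months against 1 month 36 of the 108 were called higher and 0 lower, where 1.91% and 2.92% of all tested probe sets were. At 10 months against 6 months 1 was called higher, a probe set of Dkk3, and 0 lower, where 1.71% and 4.55% of all were, with 37 of the 38 of Abca8a below 0 and 9 of 9 of Car14 above 0.

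**Figure D4:**
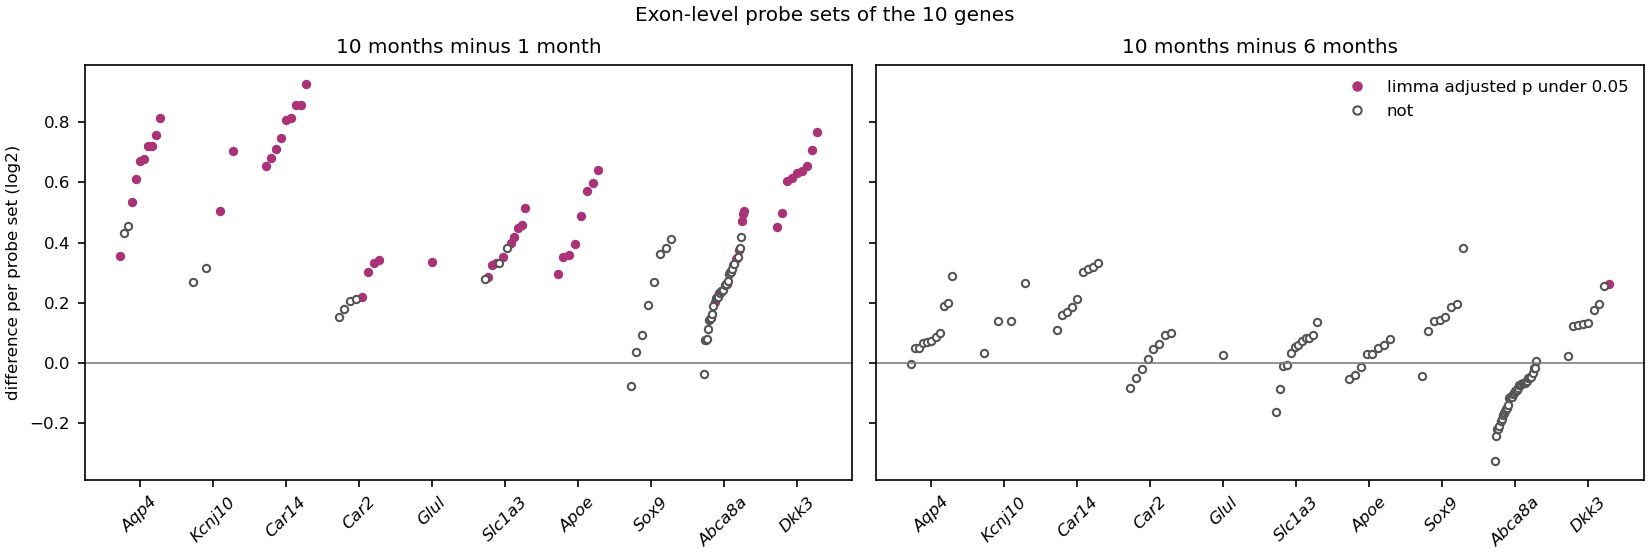
Difference in log2 level for each tested probe set of the 10 genes (vertical axis) by gene (horizontal axis), at 2 comparisons of ages named over the panels. Filled points passed limma's adjusted p of 0.05 among all probe sets and open points did not. At 10 months against 1 month all 9 points of Car14 and of Dkk3 are filled, and at 10 months against 6 months 1 point, of Dkk3, is.

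The promoters of 4 genes of the list are shown side by side. Kcnj10 and Apoe were first called at 2 months and Car14 and Slc1a3 at 4 months, but whether the genes differ in timing was not tested. The promoters are given to show where they hold the short core motifs of SOX factors, since Sox9 is itself on the list. Each is the RefSeq window on build GRCm38.p6 of 250 bases before to 50 bases after a gene's start, in the gene's own direction. Such windows were found for 6 of the 10 genes. Capitals mark matches to the SOX cores ACAAT and ACAAAG and to the TATA core TATAAA on either strand.
Kcnj10 promoter: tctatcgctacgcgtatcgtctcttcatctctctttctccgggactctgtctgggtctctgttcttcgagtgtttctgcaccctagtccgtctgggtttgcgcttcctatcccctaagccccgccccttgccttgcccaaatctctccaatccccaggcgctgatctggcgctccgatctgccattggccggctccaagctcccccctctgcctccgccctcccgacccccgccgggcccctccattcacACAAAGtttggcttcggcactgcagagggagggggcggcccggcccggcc
Car14 promoter: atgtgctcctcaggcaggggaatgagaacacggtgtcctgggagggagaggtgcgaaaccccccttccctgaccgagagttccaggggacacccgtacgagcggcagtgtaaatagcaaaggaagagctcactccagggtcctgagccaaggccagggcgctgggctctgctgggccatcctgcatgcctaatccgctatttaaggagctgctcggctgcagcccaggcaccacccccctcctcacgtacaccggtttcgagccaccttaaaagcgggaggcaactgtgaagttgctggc
Apoe promoter: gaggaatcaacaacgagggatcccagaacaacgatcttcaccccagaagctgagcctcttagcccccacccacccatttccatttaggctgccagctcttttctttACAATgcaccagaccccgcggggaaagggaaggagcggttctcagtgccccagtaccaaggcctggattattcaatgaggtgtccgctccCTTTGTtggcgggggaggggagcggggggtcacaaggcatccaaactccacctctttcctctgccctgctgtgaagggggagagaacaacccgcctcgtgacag
Slc1a3 promoter: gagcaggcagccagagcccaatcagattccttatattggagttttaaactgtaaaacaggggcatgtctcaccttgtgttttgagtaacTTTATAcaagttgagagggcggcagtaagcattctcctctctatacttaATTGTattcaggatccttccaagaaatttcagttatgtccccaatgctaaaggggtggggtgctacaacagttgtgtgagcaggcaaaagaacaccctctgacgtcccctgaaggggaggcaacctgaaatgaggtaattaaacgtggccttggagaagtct
The Kcnj10 window lies at chr1:172340960-172341259 on the plus strand and holds ACAAAG at the start itself. The Car14 window, at chr3:95904636-95904935 on the minus strand, has none of the 3 motifs. Apoe is shown by 1 of its 3 windows, at chr7:19699139-19699438 on the minus strand, with ACAAT before the start and ACAAAG, on the opposite strand, closer to it. Slc1a3, at chr15:8710758-8711057 on the minus strand, holds ACAAT and TATAAA, each on the opposite strand. Over all 32851 windows of this length 31% held ACAAT, 18.7% ACAAAG and 13.6% TATAAA, and of the 8 windows of the listed genes 3, 2 and 2 did. A match to so few letters is a description of the sequence and not a binding site.

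Other genes of the same pathways, on lists chosen with earlier results of these data known, were counted in the same way. Over all tested genes the shares called higher and lower were 6.9% and 8.26% at 4 months against 1 month, 20.6% and 20.8% at 10 months against 1 month, and 8.56% and 11.7% at 10 months against 6 months. The counts at 10 months against 1 month in water and potassium handling, in acid-base handling and in glutamate handling were near these shares and are no result about those lists. Among 8 tested partners in water and potassium handling, 1 rose and 1 fell at 4 months against 1 month, and 3 rose and 1 fell at 10 months against 1 month. Dmd, whose retinal dystrophin isoform anchors channels in the end feet, fell by 0.30 at 4 months (SE 0.08, limma adjusted p = 0.0153), and the aquaporin gene Aqp11 rose by 0.27 ± 0.08 (adjusted p = 0.0365). Dtna, which encodes a dystrophin-associated protein, was 0.16 ± 0.05 higher at 10 months than at 6 months (adjusted p = 0.0354), as the 1 gene called among the 8. Of 7 acid-base and lactate genes limma called 0 at 4 months against 1 month, with 0 at an unadjusted p under 0.05. Over all 11836 tested genes 3402 had such a p. At 10 months against 1 month limma called 2 of the 7 higher and 1 lower. Slc16a3, the gene of a lactate transporter, fell by 0.84 at 10 months against 6 months (SE 0.09, adjusted p = 2.87e-06), and Car12, another carbonic anhydrase gene, was 0.63 ± 0.18 higher (adjusted p = 0.0171). Car12 overlapped between these ages. With the pigment epithelium mean as a covariate, Slc16a3 stayed called at 10 months against 6 months (-0.89 ± 0.10, adjusted p = 3.14e-05), while Car12 (0.29 ± 0.15, adjusted p = 0.236) and Dtna (0.15 ± 0.06, adjusted p = 0.152) did not.

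In glutamate and amino acid handling, 2 of 11 genes rose and 2 fell at 4 months against 1 month, and 3 rose and 2 fell at 10 months against 1 month. Slc7a11, the gene of the cystine-glutamate exchanger, averaged 6.40 at 4 months and 5.63 at 1 month (difference 0.77 ± 0.21, limma adjusted p = 0.0164). Slc1a7, the gene of a glutamate transporter found mainly in photoreceptors and bipolar cells, averaged 11.36 at 1 month, 11.13 at 6 months and 10.53 at 10 months, and fell by 0.60 at 10 months against 6 months (adjusted p = 1.17e-06). Slc1a5, a gene of a neutral amino acid transporter, fell by 0.30 at 4 months against 1 month (adjusted p = 0.0197). Of 11 lipid transport genes 4 rose and 1 fell at 4 months, and 5 rose and 1 fell at 10 months, each against 1 month. The shares over all tested genes were 6.9% and 8.26% at 4 months, and 20.6% and 20.8% at 10 months. Abca1, whose product loads cholesterol onto apolipoproteins such as that of Apoe, was 0.40 ± 0.08 higher at 4 months than at 1 month (adjusted p = 0.0018) and 0.45 ± 0.08 higher at 10 months than at 6 months (adjusted p = 0.000421). Lrp1, a gene of a receptor for such particles, rose by 0.31 ± 0.10 at 4 months (adjusted p = 0.0456), and Fabp7, a gene of a fatty acid-binding protein of glia, fell by 0.48 at 4 months against 1 month (adjusted p = 0.0479) and by 0.54 at 10 months against 6 months (adjusted p = 0.0216). With the pigment epithelium mean as a covariate, Slc1a7 and Abca1 stayed called at 10 months against 6 months (adjusted p = 3.14e-05 and 0.0024), and Fabp7 was no longer called (-0.31 ± 0.16, adjusted p = 0.243).

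Transcription factors and Notch genes of Muller glia, 12 in all, had 3 higher and 0 lower at 4 months and 8 higher and 1 lower at 10 months, each against 1 month, where the shares over all tested genes were 6.9% and 8.26%, and 20.6% and 20.8%. Hes1, a target of Notch signalling that keeps cells glial, measured 8.14, 8.15, 8.25 and 8.17 at 1 month and 8.51, 8.76, 8.59 and 8.51 at 2 months. Later levels were 8.62, 8.69, 8.49 and 8.66 at 4 months, 8.69, 8.63, 8.54 and 8.62 at 6 months and 8.95, 8.79, 9.05 and 8.89 at 10 months. Its arrays of 1 month were the lowest and those of 10 months the highest, without overlap with any other age. Hes1 rose by 0.44 ± 0.07 at 4 months against 1 month (limma adjusted p = 0.000206) and by 0.30 ± 0.07 at 10 months against 6 months (adjusted p = 0.00268). Nfix, a gene of the nuclear factor I family, rose by 0.52 ± 0.06 at 4 months against 1 month (adjusted p = 1.56e-05) and by 0.36 ± 0.06 at 10 months against 6 months, and the receptor gene Notch2 by 0.33 ± 0.08 at 4 months. Hes1 (0.24 ± 0.07, adjusted p = 0.0401) and Nfix (0.35 ± 0.07, adjusted p = 0.00386) stayed called at 10 months against 6 months with the pigment epithelium mean as a covariate. Of 11 Dickkopf and Wnt inhibitor genes limma called 0 at 4 months against 1 month, 0 at 10 months against 1 month and 0 at 10 months against 6 months, where the shares over all tested genes were again 6.9% to 20.8%. At an unadjusted p under 0.05 there were 1, 2 and 1 of the 11, and 3402, 5820 and 3954 of all 11836 tested genes.

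A further 15 markers of Muller glia had 8 genes higher and 1 lower at 4 months and 12 higher and 1 lower at 10 months, each against 1 month, where the shares over all tested genes were 6.9% and 8.26%, and 20.6% and 20.8%. Genes are named below for the size of their change or in any case, and the 1 called lower at 4 months is not among them. Their mean was 0.41, 0.23, 0.38 and 0.42 above 1 month in replicates 1 to 4 of 10 months, lowest in replicate 2, the array with the lowest pigment epithelium mean. Rlbp1 measured 10.92, 10.89, 10.92 and 10.83 at 1 month, 11.19, 11.27, 11.24 and 11.27 at 4 months and 11.58, 11.39, 11.52 and 11.53 at 10 months, with no overlap of these ages. It rose by 0.35 ± 0.06 at 4 months (limma adjusted p = 0.0007) and by 0.62 ± 0.06 at 10 months, each against 1 month. Prdx6, a gene of an antioxidant enzyme, and Aldh1a1, which encodes a retinoic acid-forming enzyme, rose by 0.60 ± 0.07 and 0.52 ± 0.14 at 4 months. Clu, the gene of the chaperone clusterin, rose by 0.29 ± 0.06 at 4 months and stood 0.20 ± 0.06 above 1 month at 10 months. Timp3, a gene of a matrix enzyme inhibitor that the pigment epithelium also makes, was 0.55 ± 0.13 higher at 10 months than at 6 months (adjusted p = 0.00495). With the pigment epithelium mean as a covariate Timp3 was 0.31 ± 0.11 higher and not called (adjusted p = 0.0779). In that fit Rlbp1 stayed called at 10 months against 1 month (0.60 ± 0.07, adjusted p = 9.81e-06), and Clu did not (0.17 ± 0.07, adjusted p = 0.0536).

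The filament genes that mark reactive Muller glia were not called. Gfap measured 8.55, 8.25, 8.42 and 8.29 at 1 month and 8.36, 8.62, 9.00 and 9.00 at 2 months. Later levels were 8.66, 8.28, 8.35 and 8.42 at 4 months, 8.27, 8.21, 8.44 and 8.08 at 6 months and 8.01, 8.30, 7.92 and 8.12 at 10 months. Replicates 3 and 4 of 2 months were the highest arrays, and all ages overlapped 1 month. Its difference from 1 month was 0.37 ± 0.13 at 2 months (limma adjusted p = 0.0901), 0.05 ± 0.13 at 4 months (adjusted p = 0.844) and -0.29 ± 0.13 at 10 months (adjusted p = 0.0813). For Vim, the gene of vimentin, the difference from 1 month was 0.10 ± 0.05 at 2 months, -0.01 ± 0.05 at 4 months and 0.11 ± 0.05 at 10 months (adjusted p between 0.102 and 0.927).

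Markers of other retinal cells were read on the same arrays. The mean of 10 cone markers was 0.10, 0.11 and 0.36 below 1 month at 4, 6 and 10 months, and at 10 months 6 of the 10 were called lower and 0 higher, where 20.8% of all tested genes were called lower and 20.6% higher, although Opn1sw, the short-wavelength opsin gene, was not (difference -0.10 ± 0.05, limma adjusted p = 0.0866). The mean of 10 microglia markers was 0.42, 0.23, 0.11 and -0.04 relative to 1 month at 2, 4, 6 and 10 months. Astrocyte markers, with 6 of 8 tested and Gjb6 and S100b too dim, averaged 7.88 to 7.93 at 1 month, 7.97 to 8.43 at 2 months, 7.96 to 8.17 at 4 months, and 7.92 to 8.27 at 6 months. At 10 months the mean was 8.46, 7.90, 8.32 and 8.26 in replicates 1 to 4, so that replicate 2 lay within the range of 1 month and the other 3 above it. Of these 6, limma called 1 higher and 0 lower at each of 2, 4, 6 and 10 months against 1 month. At 4 and 10 months the called gene was Aldh1l1. The mean of 6 lens markers was 7.01 ± 0.24 (SD, n = 4) at 1 month, 6.18 ± 0.16 at 2 months, 6.24 ± 0.26 at 4 months, 6.48 ± 0.55 at 6 months and 6.26 ± 0.10 at 10 months. Of these 6, limma called 2, 2, 1 and 2 lower and 0 higher at 2, 4, 6 and 10 months against 1 month, among them the crystallin gene Cryaa (-2.54 ± 0.49 at 4 months). The mean of 8 endothelial markers was 8.37 ± 0.12 at 1 month, 8.27 ± 0.04 at 2 months, 8.16 ± 0.04 at 4 months, 8.13 ± 0.08 at 6 months and 8.15 ± 0.07 at 10 months. Of the 8, 2, 4, 4 and 3 were called lower at 2, 4, 6 and 10 months against 1 month, and 1, the receptor gene Flt1, higher at each age. Beside these astrocyte, lens and endothelial counts, 5.22%, 8.26%, 8.52% and 20.8% of all tested genes were called lower at these ages, and 3.3%, 6.9%, 7.89% and 20.6% higher. At 2, 4, 6 and 10 months the mean of the 10 Muller glia genes was 0.20, 0.30, 0.36 and 0.43 above 1 month. The part that a changed share of any of these cells has in the levels of the 10 genes was not tested.

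**Figure D5:**
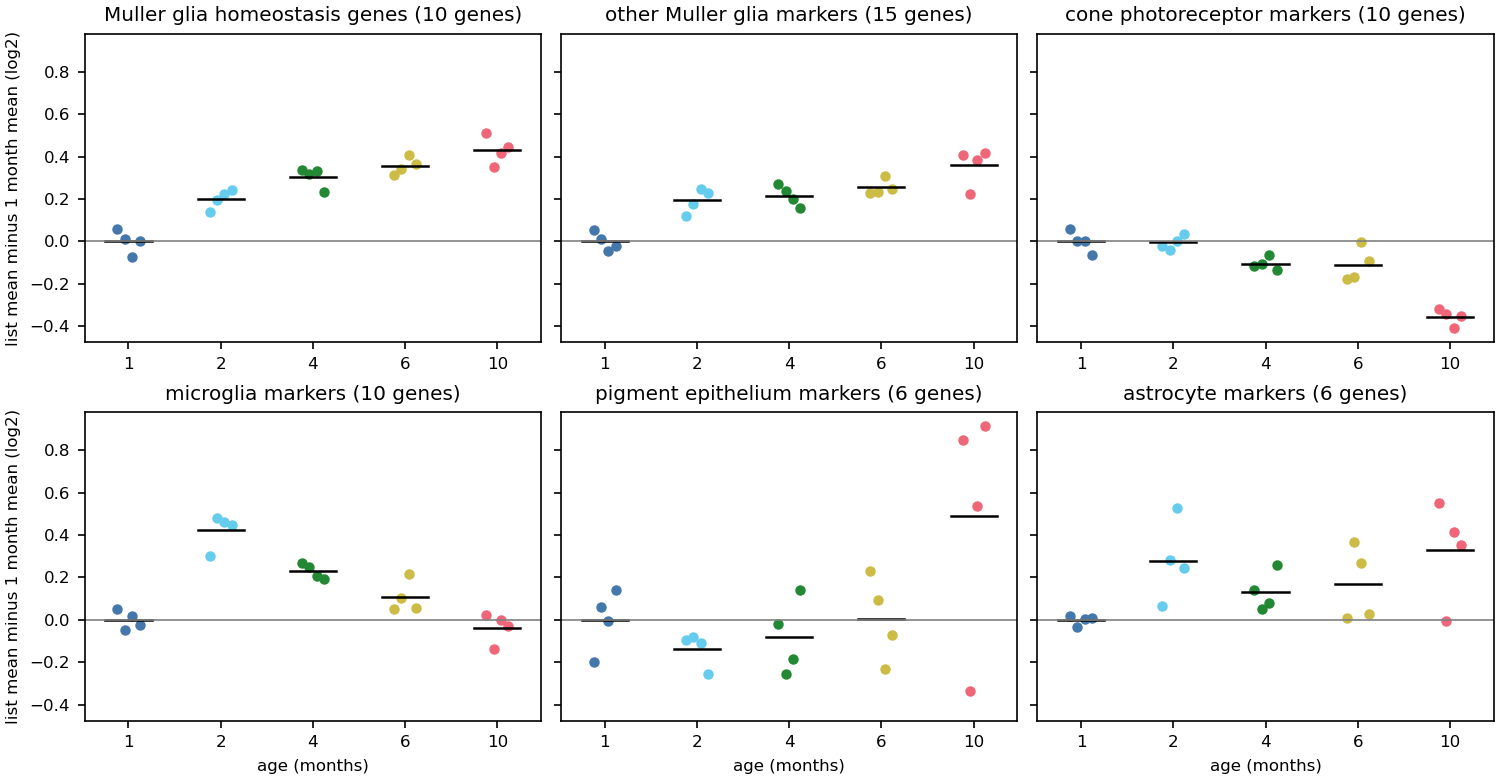
Mean log2 level of gene lists minus their mean at 1 month (vertical axis) at 5 ages in months (horizontal axis), with a point for each array and a bar for the mean of 4. The 10 Muller glia genes reach 0.43 at 10 months, where the cone markers reach -0.36 and the pigment epithelium markers spread from -0.34 to 0.91.

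Likeness of pattern was measured as the root mean square difference, over the 20 arrays, between a gene's level centred on its mean and the average of the 10 genes' centred levels. The 6 tested genes outside the list with the smallest difference were Mpp2 (0.0458), Lrtm1 (0.0512), Dlg3 (0.0516), Chn2 (0.0545), Slc6a15 (0.0551) and Grb10 (0.0554), where the median over the other tested genes was 0.211. All 6 rose at 4 months against 1 month, by 0.25 to 0.29 (limma adjusted p between 0.000436 and 0.00863), and limma called 0 of the 6 at 10 months against 6 months, with differences of 0.02 to 0.16 and adjusted p between 0.0633 and 0.806. Since all of them were picked for this pattern, their changes are a description.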

How the data were processed

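Whole-retina RNA of 20 Nrl-/- mice was hybridised to exon arrays after ribosomal RNA was reduced, per the labels. The authors deposited a log2 intensity for each exon probe set, computed with RMA according to the submitters' processing notes (version and build not stated there). RMA brings arrays to 1 distribution, so a change common to all genes would not show. Precision is limited by the number of arrays, 4 per age, and p-values measure the spread between these mice.

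Probe sets with 1 gene symbol in the platform's table (179496) were summarised per gene by median polish, and symbols were updated through the RefSeq gene table (2039 changed, none of the 10). Probe sets with several symbols (1328) or none (13469) were left out. Genes in the lowest 25% of mean level (log2 under 5.61) were not tested, nor were single probe sets under 6.15. Tests used lmFit and eBayes of limma 3.58.1 (R 4.3.3; no trend, not robust), 1 mean per age, all 20 arrays in 1 fit, two-sided, with Benjamini-Hochberg adjustment over all genes or probe sets. The limma step alone was tested on simulated data, at gene level and for a single comparison of ages. Figures used matplotlib 3.10.9.

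The 10 genes and all lists were chosen with earlier results of these data known. Named in any case were the 10 genes, Nrl, Eif2s3y, Opn1sw, Gfap, Rlbp1, Vim, Hes1 and Clu, from each pathway list up to 3 genes with the largest change among those called at 4 against 1 month or 10 against 6 months, and the 6 genes most like the list. Aldh1l1, Cryaa, Flt1 and the pigment epithelium markers were named after their values were seen. The same replicate numbers at different ages did not pair the mice. Alternatives were the mean or the brightest probe set, no filter or one of 50%, median centring, quantile normalization, eBayes with trend and robust on, array weights, a replicate block, only the ages compared, a minimum of 1.5-fold, the Y-linked level as a covariate or a limit, and each array left out. The pigment epithelium covariate and replicate 2 of 10 months alone were added after seeing the data.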

Additional observations from a re-analysis of the deposited data

Results flagged for a closer look

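In each age group of each of the 10 genes, the highest or lowest array was set against the spread of the group by Dixon's test, which chance alone passes in about 1 in 20 groups, and 5 of 50 groups passed. Slc1a3 in replicate 1 of 10 months was 10.388, above the other 3 arrays of that age at 10.09 to 10.11. Apoe in replicate 2 of 10 months was 11.8842, below the other 3 at 12.14 to 12.19, and this is the array with the lowest mean of the pigment epithelium markers. The remaining 3 lie in groups with little spread: Car14 in replicate 1 of 4 months was 10.1274 against 10.09 to 10.10, Car2 in replicate 1 of 1 month was 11.8495 against 11.79 to 11.80, and Glul in replicate 3 of 2 months was 12.2463 against 12.22.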

How the results depend on the processing

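Of the 35 differences called among the 10 genes, 1160 values under other settings gave 1069 that stayed called, 91 that were no longer called and 0 reversals, and of 55 differences not called, 51 of 1770 values became called. With each array left out, the number of the 10 genes called was 2 to 5 at 2 against 1 month, 6 to 7 at 4 against 1, 8 to 9 at 6 against 1, 8 to 10 at 10 against 1, 0 to 0 at 4 against 2 and at 6 against 4, 0 to 3 at 10 against 6, 2 to 3 at 10 against 4, 1 to 3 for 2, 4 and 6 against 1 and 10 months, and 7 to 10 for the F test. The highest count at 2 months came without replicate 4 of 4 months, and 0 at 10 against 6 months without replicate 4 of 6 months or 1 or 3 of 10 months. Called probe sets ranged over 20 to 37 (4 against 1, with 20 and 21 without replicate 3 of 1 month and 2 of 4 months), 48 to 69 (10 against 1) and 0 to 3 (10 against 6, where 0 came without replicate 1, 3 or 4 of 6 months or 1 or 3 of 10 months).

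At 2 against 1 month (3 called) the count was 6 with 50% filtered, with array weights and with trend and robust eBayes, 5 with median or quantile scaling, 1 with the Y-linked covariate and 0 with the brightest probe set. The Y-linked covariate cannot be separated from age in this comparison. At 10 against 6 months (2 called) it was 1 with the mean of probe sets, no filter, array weights, the Y-linked covariate and the high-Y arrays only, and 0 with the brightest probe set, only these ages or the pigment covariate. At 10 against 4 months (2 called) it was 1 with the brightest probe set or the pigment covariate. Replicate 2 of 10 months alone leaves 1 array at that age, so its counts are not given. For the middle ages (2 called) it was 1 with the mean of probe sets or no filter, 5 with array weights and 0 with the brightest probe set, and the F test called 6 with the brightest probe set. The probe set count at 10 against 6 months (1 called) was 0 with no filter, 2 with 50% filtered and 4 with trend and robust eBayes. A minimum of 1.5-fold left 0, 0, 1, 3, 0, 0 and 0 genes at 2, 4, 6 and 10 against 1, 10 against 6, 10 against 4 and the middle ages, and 4, 26 and 0 probe sets.

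Same-numbered mice of different ages did not deviate together (40 pairs, correlations -0.57 to 0.56, 10 over 0.1), and 4 of 20 arrays correlated best with their own number. With the replicate block the count was 1 at 10 against 6 months and the probe sets were 23 at 4 against 1 and 0 at 10 against 6 months.

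Over all genes, 1008 were called at 2 against 1 month, with 344 by the brightest probe set, 2372 with array weights and 125 with the Y-linked covariate. At 4 against 1 month 1795 were called, with 840, 3022 and, for only these ages, 1049. At 10 against 6 months 2400 were called, with 988 by the brightest probe set, 1494 on the high-Y arrays and 1421 with the pigment covariate. The causes were not tested.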
